A study of Rattus norvegicus with 145 samples.

Results

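Widely used markers of rat liver preneoplasia and of liver progenitor cells were chosen by symbol, 10 of the 17337 genes counted in each data set. They comprised the preneoplasia enzymes Gstp1, Ggt1, Akr1b8 and Aldh3a1, the oncofetal genes Afp and Gpc3, and the progenitor and biliary genes Prom1, Sox9, Krt19 and Epcam. All 10 were present in each of the 5 count tables. RNA was taken from the left liver lobe of Wistar rats given acetamide in water, or water alone, by daily oral gavage, with 5 rats in each of 29 groups. Experiment A used Hsd:WI males of 9 to 10 weeks for 7 days at doses of 0, 30, 100, 300 and 1000 mkd (mg acetamide per kg body weight and day). Experiment B used Crl:WI males and females of 8 to 10 weeks at 0, 300, 500, 750, 1000 or 1500 mkd for 7 or 28 days. Vehicle and treated rats therefore shared the gavage and the water, and the rats were fasted overnight before sampling. The comparisons address whether acetamide, a rat liver carcinogen, changed these markers within days to weeks of exposure. The labels number the rats within a group and name no litters or cages, and each library was taken as 1 animal. In Experiment A the label numbers skip a rat at 100, 300 and 1000 mkd, so its rats are numbered here by their order.

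In rat liver, clusters of altered hepatocytes that precede tumors are classically recognized by enzymes that normal adult hepatocytes hardly make. Gstp1 (the placental form of glutathione S-transferase) and Ggt1 (gamma-glutamyltransferase, which degrades extracellular glutathione) are the standard stains for such clusters, and the aldo-keto reductase Akr1b8 and the aldehyde dehydrogenase Aldh3a1 are carbonyl-detoxifying enzymes also found in them. Afp, the fetal serum protein, and Gpc3, a cell-surface heparan sulfate proteoglycan, are made by fetal liver and again by many hepatocellular carcinomas. Sox9 (a transcription factor), Krt19 (a keratin), Epcam (an adhesion molecule) and Prom1 (the membrane protein CD133) mark bile duct epithelium and the ductular cells that expand after injury. In RNA from whole tissue, fewer or more cells of a type cannot be told apart from less or more RNA per cell.

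The promoter is shown for the 4 genes that were called in a comparison of a dose with vehicle below and had a promoter entry. They are shown because Gstp1 and Akr1b8 belong to families known for control through stress-response elements. The 250 bases before the annotated start are from RefSeq on the GRCr8 assembly, which is not the build used for the counts. They are printed 5' to 3' in the direction of the gene, with matches to the 8 searched motifs in capitals. Prom1 has a pair of annotated starts.
Gstp1 (chr1:210769706-210769955, minus strand): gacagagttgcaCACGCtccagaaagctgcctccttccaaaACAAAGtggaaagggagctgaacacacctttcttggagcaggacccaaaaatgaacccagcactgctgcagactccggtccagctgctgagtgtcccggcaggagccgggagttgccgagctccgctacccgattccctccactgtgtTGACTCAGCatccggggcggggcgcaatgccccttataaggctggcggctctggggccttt
Ggt1 (chr20:13095105-13095354, minus strand): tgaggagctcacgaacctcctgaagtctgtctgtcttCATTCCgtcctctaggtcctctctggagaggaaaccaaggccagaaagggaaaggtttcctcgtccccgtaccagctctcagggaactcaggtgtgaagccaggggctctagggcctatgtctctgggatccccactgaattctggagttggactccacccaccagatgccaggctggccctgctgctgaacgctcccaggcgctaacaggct
Akr1b8 (chr4:63964171-63964420, plus strand): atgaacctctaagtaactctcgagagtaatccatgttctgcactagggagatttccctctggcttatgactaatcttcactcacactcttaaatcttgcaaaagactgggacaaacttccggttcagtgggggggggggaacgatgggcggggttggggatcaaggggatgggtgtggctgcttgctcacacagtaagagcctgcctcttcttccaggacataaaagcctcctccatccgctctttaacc
Prom1, start 1 (chr14:71202395-71202644, plus strand): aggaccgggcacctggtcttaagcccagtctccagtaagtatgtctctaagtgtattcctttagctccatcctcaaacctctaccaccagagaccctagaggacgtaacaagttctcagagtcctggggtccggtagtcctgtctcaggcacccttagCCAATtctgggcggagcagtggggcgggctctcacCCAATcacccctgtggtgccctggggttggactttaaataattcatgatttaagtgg
Prom1, start 2 (chr14:71211389-71211638, plus strand): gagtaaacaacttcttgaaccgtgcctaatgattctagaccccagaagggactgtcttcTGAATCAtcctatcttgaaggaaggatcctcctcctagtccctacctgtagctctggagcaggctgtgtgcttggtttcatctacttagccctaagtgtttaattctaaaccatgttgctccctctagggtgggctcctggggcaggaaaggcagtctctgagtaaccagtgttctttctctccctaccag
The Gstp1 promoter held TGACTCAGC 61 bases before its start. These letters match both the antioxidant response element core (TGACNNNGC) and the overlapping AP-1 site (TGANTCA). Over windows of 300 bases, the first motif was in 12.1% and the second in 7.33% of the 33469 RefSeq promoters. Upstream of it lay a SOX site (ACAAAG, 18.8% of promoters) at 209 bases and a dioxin response core (GCGTG, 29.7%) at 238 bases. The Ggt1 window held a TEAD site (GGAATG, 14.2% of promoters) and the Prom1 windows a pair of CCAAT boxes (37.5%) at start 1 and an AP-1 site at start 2. No motif searched, among them the TATA box (TATAAA) and the HNF1 site (GTTAAT), matched the Akr1b8 sequence shown. Motifs were searched on both strands, and a match describes the letters and not a bound site. Of the 10 genes, 7 had a promoter entry, and Aldh3a1, Krt19 and Sox9 had none.

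Each library held between 15449716 and 39986531 gene reads (median 28262376). The tissue label was borne out by the 10 hepatocyte markers (albumin and others), which together took 77127 to 382517 CPM in every rat, where CPM is the count of a gene per 1000000 gene reads of the scaled library. By contrast, the marker genes were rare transcripts. Median levels over all rats ran from 0.361 CPM for Akr1b8 to 16.1 CPM for Afp among the 9 genes that could be tested. Gpc3 had between 2 and 82 counts per rat, so its values and those of Akr1b8 and Ggt1 carry substantial counting error. Aldh3a1 had no count in 100 rats and at most 4 counts in any rat, passed the filter on low counts in none of the tables, and was not tested. Reads of near-identical family members, such as the glutathione S-transferases and the aldo-keto reductases, may be assigned to the wrong copy, which leaves Gstp1 and Akr1b8 levels uncertain in that respect.

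Differential expression was tested with edgeR's quasi-likelihood F-test within each data set, and a gene was called at a |fold change| of at least 1.5 with a p of 0.05 or less after Benjamini-Hochberg adjustment over all genes tested. The markers were chosen with earlier results of these data known, which limits any comparison of their counts with the shares of all genes. At the highest dose, 3 of 9 markers were called in males on day 29, where 4.91% of all genes were called. All 3 were up-regulated, as were 3.16% of all genes. In females, 1 of 9 was called on day 8 (0.705% of all genes) and 2 of 9 on day 29 (13.1% of all genes). None of the 9 was called in males on day 8, either at 1500 mkd in Experiment B (0.177% of all genes) or at 1000 mkd in Experiment A (21.4% of all genes). For these counts of 0, the number with an unadjusted p under 0.05 was 0 in Experiment B and 1 (Gpc3) in Experiment A, and DESeq2 called 0 in both. At the lower doses Gstp1 was called at 750 and 1000 mkd in males on day 29, and no other marker was called in any data set by edgeR, with 0 to 6 of 9 at an unadjusted p under 0.05 per dose. Below the highest dose in females, 0.0087, 0.0174 and 0.0174% of all genes were called at 300, 500 and 750 mkd on day 8 and 1.37% at 1000 mkd. On day 29 the shares were 0.0349, 0.183 and 1.59% at 500, 750 and 1000 mkd, and 0 at 300 mkd. In males below the highest dose, 0 of all genes were called on day 8 in either experiment. On day 29 the male shares were 0 at 300 and 500 mkd, 0.78% at 750 mkd and 2.76% at 1000 mkd. The overview plot sets the fold changes at the highest dose side by side.

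**Figure D1:**
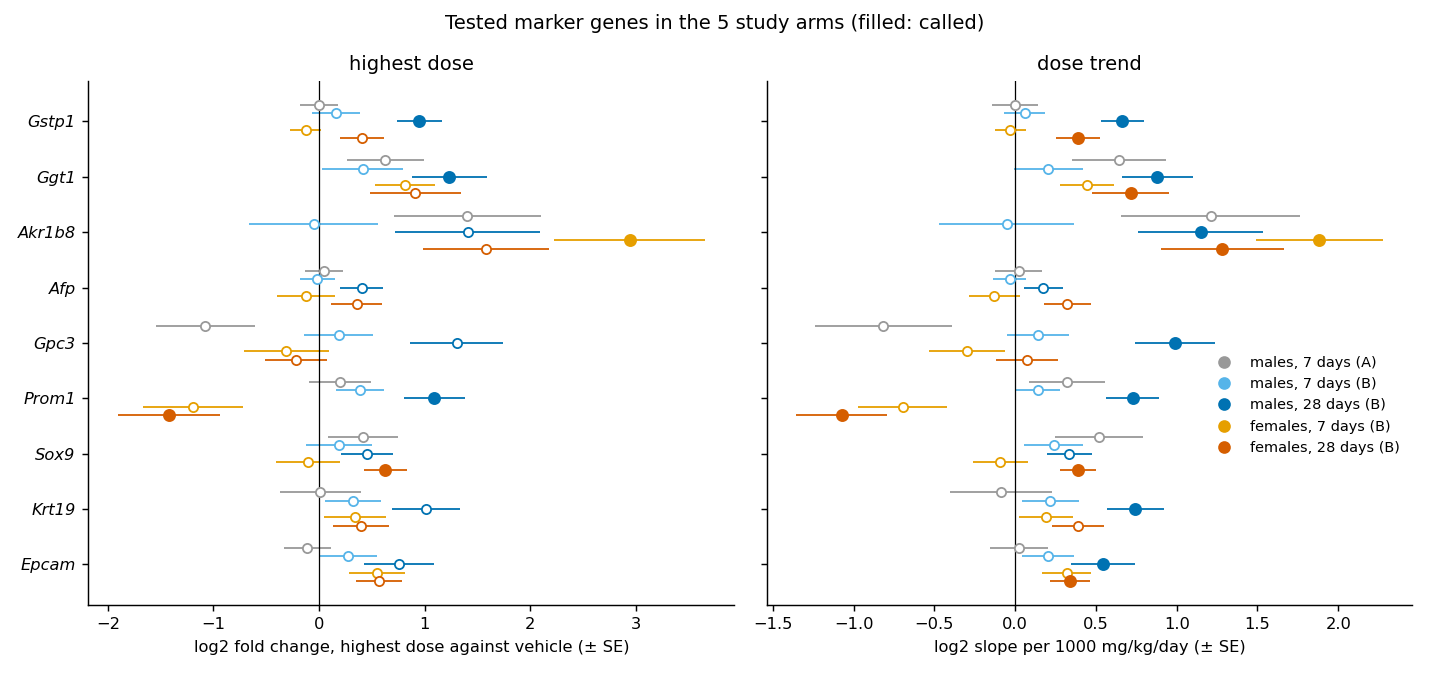
Fold changes (log2, highest dose minus vehicle) of the 9 tested marker genes in the 5 data sets. Called genes are marked. All 9 values lie above 0 in males on day 29, as do 6585 of the 11279 genes tested there. Prom1 lies above 0 in males and below 0 in females.

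Gstp1 was up-regulated at 3 doses in males after 28 days. Its level in the 5 vehicle males was 4.87, 4.13, 4.92, 3.23 and 4.42 CPM, and at 1500 mkd it was 9.42, 8.26, 10.1, 5.83 and 8.04 CPM. Every treated male exceeded every vehicle male. How many of all genes separated the groups in this way was not counted, here or for the markers below. The rise was 1.93-fold (log2 0.95, SE 0.22, edgeR adjusted p 0.0124). At 1000 mkd the males had 7.22, 9.86, 7.23, 6.84 and 6.65 CPM, again all above the vehicle group (1.75-fold, edgeR adjusted p 0.0375, with 2.76% of all genes called). At 750 mkd, 4 of 5 males were above every vehicle male and Gstp1 was up-regulated 1.83-fold (edgeR adjusted p 0.0460, with 0.78% of all genes called). The paper, which used DESeq2, reported an increase of Gstp1 in males on day 29 at 1000 mkd only. The cause of this difference was not tested. Gstp1 at 1500 mkd was called in 16 of 16 alternative settings, with log2 changes between 0.81 and 1.05, among them the 10 that left out 1 rat of the 2 groups. When the rats of one number were instead left out of every group at once, 0 to 2 markers were called at any dose in males on day 29.

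Ggt1, the other classical stain, rose from 0.361 ± 0.0802 to 0.848 ± 0.282 CPM (mean ± SD, n = 5 each) in males on day 29 at 1500 mkd. Vehicle males had 0.348, 0.413, 0.363, 0.235 and 0.446 CPM. Treated males had 1.05, 0.731, 1.05, 0.403 and 1.01 CPM. Rat 4 lay inside the vehicle range and the other 4 lay above it. The change was 2.35-fold (log2 1.23, SE 0.35, edgeR adjusted p 0.0348). It rested on 7 to 39 counts per rat in the 2 groups, and the call was lost (edgeR adjusted p 0.0576 to 0.0911) in the absence of vehicle rat 1, 2, 3 or 4 or treated rat 1, 3 or 5. It was lost too with only the 2 groups in the fit (edgeR adjusted p 0.0618). In all, Ggt1 was called in 6 of 15 alternative settings. Akr1b8 had 0.358 ± 0.200 CPM in vehicle males and 0.953 ± 0.738 CPM at 1500 mkd, with 4 of 5 treated males above every vehicle male. Its difference of 1.41 (log2, SE 0.68) was not called (edgeR adjusted p 0.183).

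Among the progenitor and biliary genes, Prom1 was called in males on day 29. Its levels were 0.696, 0.675, 0.627, 0.572 and 0.817 CPM in vehicle males and 1.78, 0.817, 2.13, 1.65 and 0.851 CPM at 1500 mkd. The groups did not overlap, but treated rats 2 and 5 were close to the highest vehicle rat. Prom1 was up-regulated 2.13-fold (log2 1.09, SE 0.29, edgeR adjusted p 0.0254), and without vehicle rat 1, 2, 3 or 4 or treated rat 1 or 3 the adjusted p was 0.0562 to 0.0693. With only the 2 groups in the fit it was 0.0810. Krt19 levels in vehicle males were 1.57, 1.43, 2.64, 1.75 and 1.60 CPM, against 3.61, 3.01, 3.32, 5.39 and 2.86 CPM at 1500 mkd. These groups did not overlap either, and the 2.02-fold difference (log2 1.01, SE 0.32) just missed the threshold with edgeR (adjusted p 0.0504) and passed it with DESeq2 (adjusted p 0.0295). Epcam (log2 0.76, SE 0.33) and Sox9 (log2 0.45, SE 0.25) were not called, with edgeR adjusted p of 0.142 and 0.237. The plot of the markers in males on day 29 shows the levels per rat at each dose.

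**Figure D2:**
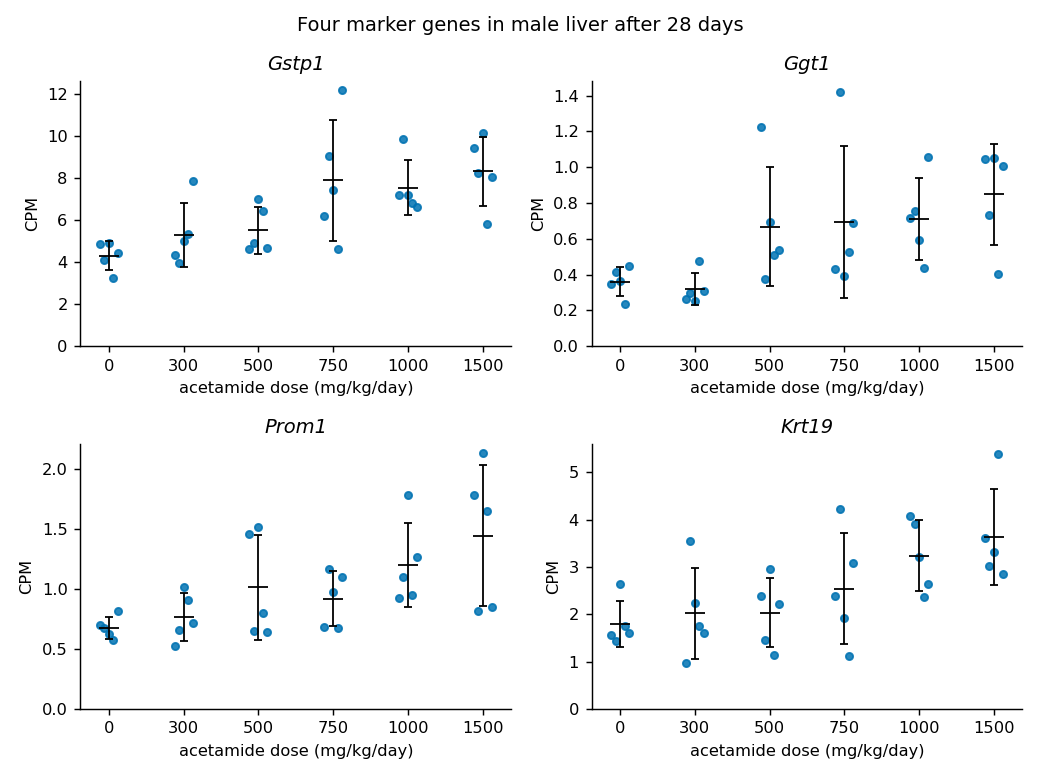
Levels (CPM, y axis) of Gstp1, Ggt1, Prom1 and Krt19 in each male of Experiment B after 28 days against dose (mkd, x axis), with the mean and SD of each group of 5. At 1500 mkd all 5 males lie above all 5 vehicle males for Gstp1, Prom1 and Krt19, and 4 of 5 for Ggt1. The share of all genes that separated the groups in this way was not counted.

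The oncofetal genes were not called in males on day 29. Afp, at 19.6 ± 5.31 CPM in vehicle males and 25.9 ± 9.28 CPM at 1500 mkd, differed by 0.40 (log2, SE 0.20, edgeR adjusted p 0.190). Its highest value, 41.2 CPM, was in treated rat 3. Gpc3 was 0.224 ± 0.153 and 0.549 ± 0.211 CPM, a difference of 1.31 (log2, SE 0.44, edgeR adjusted p 0.0641), with 3 of 5 treated males above every vehicle male. Leaving out vehicle rat 2, the male with the highest vehicle value, brought Gpc3 to an adjusted p of 0.0495. Treated rat 3 had the highest level of its group in 8 of the 9 tested markers, Krt19 being the exception, and thus in all 3 that were called. Among them were Akr1b8 (2.11 CPM) and Epcam (22.5 CPM). The same rat had a summed level of 12 proliferation genes of 1096 CPM, where the other 4 treated males had 36.6 to 91.8 CPM. The paper named this male an outlier for labeling with Ki67, a proliferation marker, and left it out of its dose-response modeling. The main tests here kept this rat. Without it Gstp1 was still called, and Ggt1 and Prom1 were not. The part of this rat's proliferation in the marker values was not tested.

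Over all 6 dose groups of males on day 29, 7 of 9 markers showed a dose trend (slope of log2 expression per 1000 mkd, edgeR adjusted p of at most 0.05), where 24.5% of all genes did. All 7 slopes were positive, as were those called for 13.9% of all genes. They were 0.66 for Gstp1 (adjusted p 0.00118), 0.88 for Ggt1 (0.00629), 0.99 for Gpc3 (0.00653), 0.73 for Prom1 (0.00314) and 0.74 for Krt19 (0.00470). These 5 slopes passed in every alternative setting in which the gene was tested. The slopes of Akr1b8 (1.15, edgeR adjusted p 0.0305) and Epcam (0.54, edgeR adjusted p 0.0413) passed in 5 of 12 and 6 of 13 alternative settings. Without the highest dose the edgeR adjusted p of Akr1b8 was 0.708. Without treated rat 3 at 1500 mkd, a setting chosen after seeing the data, the slopes of Akr1b8 and Epcam were 0.71 and 0.41 with adjusted p of 0.188 and 0.143. Sox9 (adjusted p 0.0749) and Afp (0.286) had no trend at this threshold.

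In males after 7 days no marker was called at any dose in either experiment, by edgeR or by DESeq2, and at most 2 of 9 had an unadjusted p under 0.05 at any dose. Below the highest dose, edgeR called 0 of all genes in these males, and at 1500 mkd in Experiment B it called 0.177%. In Experiment B, Gstp1 was 4.66 ± 1.03 CPM in vehicle males and 5.23 ± 1.83 CPM at 1500 mkd, a difference of 0.16 (log2, SE 0.22). Prom1 was 0.918 ± 0.384 and 1.20 ± 0.248 CPM, and Krt19 was 1.81 ± 0.521 and 2.26 ± 0.381 CPM, with overlapping ranges for both. In Experiment A, Gstp1 had nearly equal means of 6.29 ± 1.35 CPM in vehicle males and 6.28 ± 0.611 CPM at 1000 mkd, although 21.4% of all genes were called there. Gpc3 was 1.47, 0.508, 0.340, 0.421 and 2.69 CPM in the vehicle males of Experiment A and 0.318 to 0.703 CPM at 1000 mkd, and the difference of -1.08 (log2, SE 0.47, edgeR adjusted p 0.0831) went with high values in vehicle rats 1 and 5. It was called without vehicle rat 3 or 4 (adjusted p 0.0391 and 0.0444), and Akr1b8 was called without treated rat 3, in which it had no count (adjusted p 0.0286). No dose trend passed in males after 7 days with edgeR, where 2.52% of all genes did in Experiment B and 45.9% in Experiment A. The trends with an unadjusted p under 0.05 numbered 0 and 2 (Ggt1 and Akr1b8), and DESeq2 called 0 in both.

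In females after 7 days Akr1b8 was the marker called. Its levels were 0.232, 0.289, 0.297, 0.0963 and 0.388 CPM in vehicle females and 1.24, 2.54, 4.06, 2.15 and 0.297 CPM at 1500 mkd. Of the treated females, 4 were above every vehicle female, and rat 5 lay within the vehicle range. The rise was 7.69-fold (log2 2.94, SE 0.71, edgeR adjusted p 0.0437). Akr1b8 also had a positive dose trend (slope 1.88, edgeR adjusted p 0.00938), where 5.44% of all genes had a trend, with 2.95 CPM in a female at 750 mkd and 2.01 CPM in a female at 1000 mkd. The call at 1500 mkd was lost (edgeR adjusted p 0.0766 to 0.157) without any 1 of the 5 vehicle females or treated rat 2, 3 or 4, and also with the replicate number as a block (adjusted p 0.0759). Akr1b8 did not pass the filter on low counts where only the 2 groups entered the fit or where at least 10 counts were required in every rat. Its trend passed in 7 of 11 alternative settings and not without the rats numbered 2, 3 or 4 or without the highest dose (edgeR adjusted p up to 0.114). The plot of Akr1b8 shows how widely treated rats were spread in each data set.

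**Figure D3:**
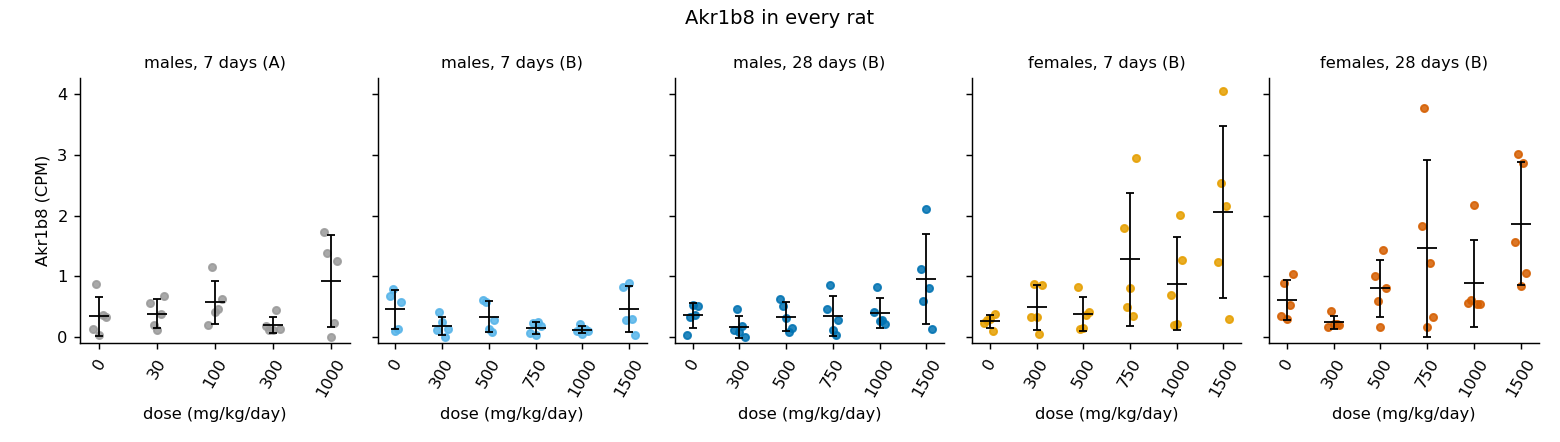
Akr1b8 level (CPM, y axis) of each rat against dose (mkd, x axis) in the 5 data sets, with the mean and SD of each group of 5. In females on day 8 at 1500 mkd the values run from 0.297 to 4.06 CPM, against 0.0963 to 0.388 CPM in vehicle females.

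Ggt1 in females after 7 days was 0.348, 0.417, 0.510, 0.578 and 0.582 CPM in the vehicle group and 0.816, 1.04, 0.964, 0.769 and 0.653 CPM at 1500 mkd. All treated females were above all vehicle females, yet the difference of 0.81 (log2, SE 0.28) was not called (edgeR adjusted p 0.146). Epcam (log2 0.55, SE 0.27) and Krt19 (log2 0.34, SE 0.29) had positive differences, and Gstp1 (-0.12, SE 0.15), Afp (-0.12, SE 0.27), Sox9 (-0.11, SE 0.30) and Gpc3 (-0.31, SE 0.40) had negative ones. None of these 6 passed the threshold.

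In females after 28 days at 1500 mkd Sox9, the transcription factor of ductular cells, was up-regulated and Prom1 was down-regulated. Sox9 was 1.01, 1.15, 1.51, 0.693 and 1.00 CPM in vehicle females and 2.02, 1.67, 1.72, 1.45 and 1.40 CPM at 1500 mkd. Vehicle rat 3 reached into the treated range, and 3 of 5 treated females were above it. The rise was 1.54-fold (log2 0.63, SE 0.20, edgeR adjusted p 0.0309), close to the fold criterion. With only the vehicle and 1500 mkd groups in the fit it was not called (edgeR adjusted p 0.136). Without vehicle rat 1, 4 or 5 or treated rat 1, 2 or 3 it was not called (edgeR adjusted p 0.0590 to 0.109).

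Gstp1, called in males at the same time and dose, was 5.41, 6.95, 12.2, 9.66 and 7.24 CPM in vehicle females and 14.9, 10.7, 6.80, 10.9 and 11.5 CPM at 1500 mkd. The groups overlapped, and the difference of 0.41 (log2, SE 0.21) was not called (edgeR adjusted p 0.171). Its highest group means were at 750 mkd (12.3 ± 1.05 CPM) and 1000 mkd (12.2 ± 3.42 CPM). Ggt1 (log2 0.91, SE 0.43, edgeR adjusted p 0.141) was not called, and vehicle rat 3 had 1.68 CPM against 0.240 to 0.778 CPM in the other vehicle females. Without that rat Ggt1 was called (adjusted p 0.0143), as was Epcam (0.0169), which was also called without treated rat 5 (0.0332) and was otherwise not (log2 0.57, SE 0.22, edgeR adjusted p 0.0682). Akr1b8 was above every vehicle female in 4 of 5 treated females (0.620 ± 0.330 against 1.87 ± 1.01 CPM), a difference of 1.58 (log2, SE 0.60) with an edgeR adjusted p of 0.0607, and it was called with DESeq2 (adjusted p 0.0409) and without treated rat 5 (edgeR adjusted p 0.0409). Krt19 (log2 0.40, SE 0.27), Afp (log2 0.36, SE 0.24) and Gpc3 (log2 -0.22, SE 0.29) were not called. The plot of Gstp1, Sox9 and Epcam in females on day 29 gives the levels per rat.

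**Figure D4:**
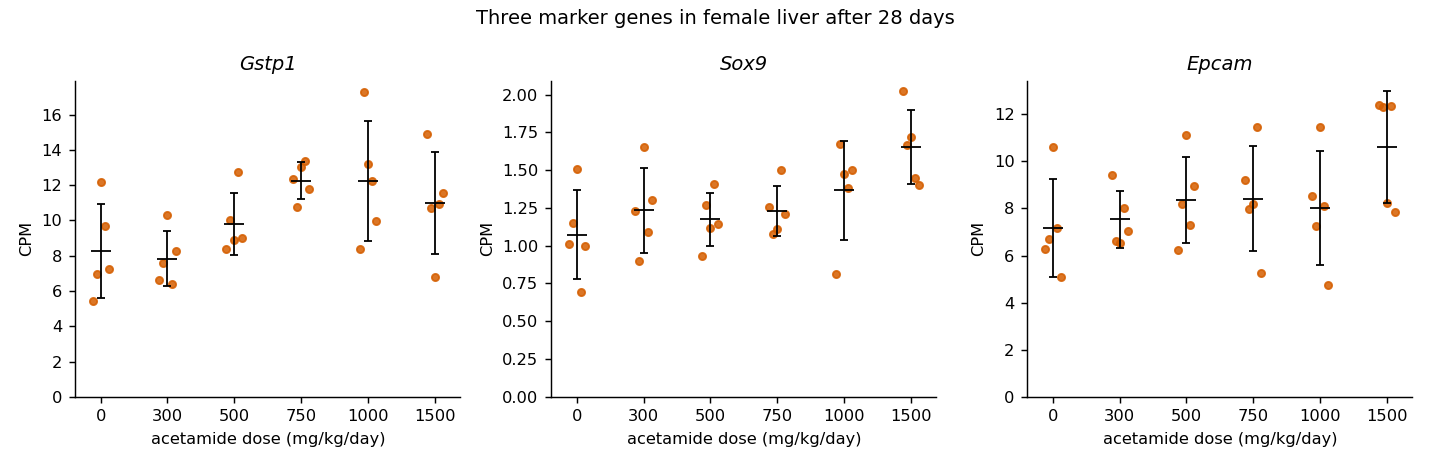
Levels (CPM, y axis) of Gstp1, Sox9 and Epcam in each female of Experiment B after 28 days against dose (mkd, x axis), with the mean and SD of each group of 5. Sox9 has its highest group mean (1.65 CPM) at 1500 mkd, and Gstp1 has its highest (12.3 CPM) at 750 mkd.

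A dose trend was found for 6 of 9 markers in females on day 29, where 27.3% of all genes had one. Slopes were positive for Gstp1 (0.39, edgeR adjusted p 0.0302), Ggt1 (0.72, adjusted p 0.0249), Akr1b8 (1.28, adjusted p 0.0121), Sox9 (0.39, adjusted p 0.0109) and Epcam (0.34, adjusted p 0.0395). The slope of Prom1 was -1.07 (edgeR adjusted p 0.00517). When the highest dose was left out, 1 of the 6 trends (that of Gstp1) passed. Leaving out the rats numbered 2 in every group left 2 trends.

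Prom1 differed most between the sexes. In vehicle females of the 28-day data it was 20.3, 12.2, 7.17, 27.4 and 10.8 CPM, against 0.572 to 0.817 CPM in vehicle males, a 21.2-fold difference (log2 4.40, SE 0.47, edgeR adjusted p 1.82e-10). In the 7-day data the vehicle females had 25.6, 7.48, 6.20, 6.98 and 7.06 CPM and the vehicle males 0.654 to 1.59 CPM, a 10.3-fold difference (log2 3.37, SE 0.42, edgeR adjusted p 1.36e-08). Every vehicle female was above every vehicle male at both times. These 2 calls held in all 15 alternative settings each. Prom1 marks ductular cells but is also made by other epithelia, and the data do not say which liver cells carried it.

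At 1500 mkd after 28 days the females had 5.78, 3.38, 4.03, 5.93 and 10.2 CPM of Prom1, and 4 of 5 lay below every vehicle female. The fall was 2.68-fold (log2 -1.42, SE 0.49, edgeR adjusted p 0.0387). At 1000 mkd, 4 of 5 females were also below every vehicle female (log2 -1.35, SE 0.48), with an edgeR adjusted p of 0.119. Without vehicle rat 1 or 4 or treated rat 1, 2, 3 or 4 the call at 1500 mkd was lost (edgeR adjusted p 0.0570 to 0.119), as it was with only these 2 groups in the fit (0.0527). After 7 days the females at 1500 mkd had 10.9, 2.93, 2.28, 3.54 and 3.32 CPM, and the difference of -1.20 (log2, SE 0.48) was not called (edgeR adjusted p 0.214). It was called without treated rat 1 (adjusted p 0.0315), the rat at 10.9 CPM. All treated females were above the vehicle males, as the plot of Prom1 by sex shows.

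**Figure D5:**
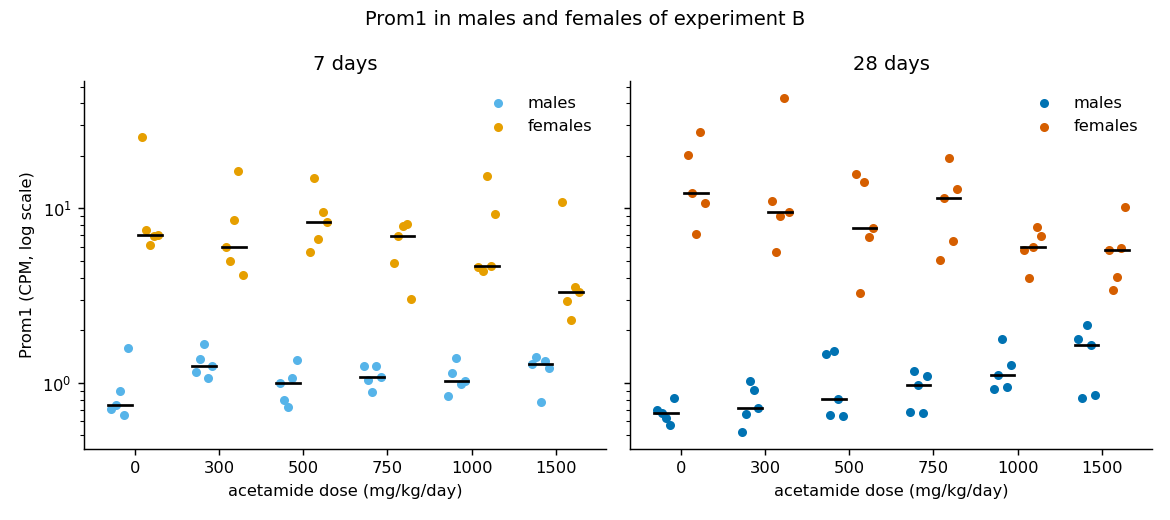
Prom1 level (CPM, logarithmic y axis) of each male and female of Experiment B against dose (mkd, x axis) after 7 and 28 days, with bars at group medians. Females lie above males at every dose, with 3.38 to 10.2 CPM at 1500 mkd on day 29 against 0.817 to 2.13 CPM in males.

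RNA of pancreatic acinar genes varied in the same females. The summed level of 6 pancreatic acinar markers was 41.6, 150.0, 180.3, 278 and 266 CPM in the 28-day vehicle females and 19.4, 9.28, 40.9, 14.9 and 108 CPM at 1500 mkd. Prss1, Pnlip and Ctrb1 did not pass the filter on low counts. Of the 3 acinar genes tested, Cpa1 (carboxypeptidase A1) was called as down-regulated (log2 -2.31, SE 0.68, edgeR adjusted p 0.0171). In the 7-day vehicle females the rat with 25.6 CPM of Prom1 also had the highest acinar sum, 237 CPM against 34.7 to 52.8 CPM in the other 4. In the 28-day vehicle group rat 4 was highest in both, and rat 1 had the second highest Prom1 level and the lowest acinar sum. At 1500 mkd on day 29, female 5 was highest in both. Female 3 of that group had the second highest acinar sum and the second lowest Prom1 level. In males the acinar sum was 8.06 to 15.6 CPM in vehicle rats and 10.5 to 23.3 CPM at 1500 mkd on day 29. The part of acinar RNA in the Prom1 result was not tested.

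The difference in response between the sexes was tested as an interaction. After 28 days it was -2.49 for Prom1 (log2, females minus males, SE 0.61, unadjusted p 0.000145), with an edgeR adjusted p of 0.0561 that did not pass. Prom1 passed without vehicle female 2 or 3, treated female 5 or treated male 3 (adjusted p 0.0120 to 0.0375). No other marker passed, and Gpc3 was nearest (log2 -1.50, SE 0.52, edgeR adjusted p 0.142). After 7 days the interactions of Prom1 (log2 -1.60, SE 0.56, edgeR adjusted p 0.957) and Akr1b8 (log2 2.98, SE 0.97, edgeR adjusted p 0.870) did not pass either. Of the 9 markers, 0 were called by edgeR and 2 had an unadjusted p under 0.05 at each time, where 0.0688% of all genes were called at 28 days and 0 at 7 days. DESeq2 called 0 of 9 at 7 days and gave no adjusted p for any of the 9 at 28 days.

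Duration was compared in the same way. In males the response to 1500 mkd was larger at 28 than at 7 days by 0.76 for Gstp1 (log2, SE 0.31, edgeR adjusted p 0.988) and by 1.09 for Gpc3 (log2, SE 0.54, edgeR adjusted p 0.988). In females it was larger by 0.53 for Gstp1 (log2, SE 0.25, edgeR adjusted p 0.615) and by 0.73 for Sox9 (log2, SE 0.36, edgeR adjusted p 0.622). These 4 had unadjusted p under 0.05 and none of the 9 was called by edgeR in either sex, where the share of all genes called was 0 in males and 0.00858% in females. DESeq2 called 0 of 9 in both sexes as well.

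Vehicle rats of the sexes differed in other markers too. After 28 days 5 of 9 markers were called, where 11.6% of all genes were. Gstp1 (8.29 ± 2.66 against 4.31 ± 0.688 CPM, log2 0.83, SE 0.21, edgeR adjusted p 0.00420) was higher in females. So were Gpc3 (0.520 ± 0.185 against 0.224 ± 0.153 CPM, log2 1.11, SE 0.39, adjusted p 0.0376) and Krt19 (3.54 ± 1.37 against 1.80 ± 0.486 CPM, log2 0.86, SE 0.30, adjusted p 0.0395). Afp was higher in males (19.6 ± 5.31 against 12.6 ± 4.48 CPM, log2 -0.75 for females minus males, SE 0.23, adjusted p 0.0159). After 7 days 2 of 9 were called (Prom1 and Afp), where 8.37% of all genes were, and Afp was 16.5 ± 3.47 CPM in males and 10.2 ± 4.16 CPM in females (log2 -0.86, SE 0.23, edgeR adjusted p 0.00699). The difference of Afp at 28 days was lost without vehicle female 3 (adjusted p 0.0741). That of Gpc3 was lost without vehicle female 1 or 3 or vehicle male 3, 4 or 5 (edgeR adjusted p 0.0571 to 0.129), and that of Krt19 without vehicle female 3 or 4 or vehicle male 1, 2, 4 or 5 (edgeR adjusted p 0.0725 to 0.134). Each sex had its own count table, so sex and any difference in handling between the tables cannot be told apart.

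Genes related to the markers gave a wider view, and among them H19, the imprinted fetal RNA, was called in 4 of 5 data sets. H19 rose by 3.51 (log2, SE 0.77) in Experiment A, 3.85 (SE 0.91) in males on day 29, 4.72 (SE 1.07) in females on day 8 and 3.24 (SE 0.72) in females on day 29. Other oncofetal genes called were Cd24, in Experiment A (log2 0.84) and in females on day 29 (0.61), and Scd2 in females on day 29 (0.76). In total 2 of 8, 0 of 8, 1 of 7, 1 of 9 and 3 of 9 tested genes of the oncofetal list were called, in the order of Experiment A and then males on days 8 and 29 and females on days 8 and 29. Beside these stand 21.4, 0.177, 4.91, 0.705 and 13.1% of all genes called. The count of 0 is by edgeR, with 1 gene at an unadjusted p under 0.05.

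The other biliary and progenitor genes of the list were called up in 6 of 21 tested genes in males on day 29, with a median difference of 0.73 (log2) beside 0.07 over all genes and with 4.91% of all genes called. Those with the lowest p were the tight junction gene Cldn4 (log2 1.49, SE 0.29), the mucin Muc1 (1.17, SE 0.28), the simple epithelial keratin Krt8 (0.82, SE 0.21) and the chloride channel Cftr (1.20, SE 0.31). In females on day 29, where 13.1% of all genes were called, 4 of 21 were up and 1 was down. These were Cd44 (log2 1.92, SE 0.32), a hyaluronan receptor, Tnfrsf12a (1.13, SE 0.31), the receptor of the cytokine TWEAK, Muc1 (0.74, SE 0.22) and Cldn4 (0.95, SE 0.34), and the epithelial transcription factor Elf3 was down (-0.77, SE 0.26). In Experiment A 6 of 21 were up, led by Krt8 (log2 1.20, SE 0.23), where 21.4% of all genes were called. After 7 days in Experiment B, Krt18 was the 1 of 20 called in males (log2 0.81, SE 0.17), where 0.177% of all genes were called. In females 0 of 21 were called by edgeR, with 5 at an unadjusted p under 0.05, where 0.705% of all genes were called.

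Summed over 6 cholangiocyte markers that are not among the 10 genes, all of which stand in the biliary list too, the level was 30.5 to 44.7 CPM in vehicle males of day 29 and 31.3 to 38.3 CPM at 1500 mkd. In females on day 29 it was 22.9 to 43.9 and 25.1 to 33.0 CPM. These sums overlapped in both sexes, although 3 of 5 tested cholangiocyte genes were called up in males (Cldn4, Cftr and Anxa13), beside 3.16% of all genes. The 5 genes had a median log2 difference of 0.81 in males, and 4 of the 5 differences were positive. In females 1 of the 5 was called up, and the median was 0.44. The 10 hepatocyte markers summed to 195849 to 248400 CPM in vehicle males and 110796 to 224464 CPM at 1500 mkd on day 29, and to 201312 to 382517 and 93194 to 198243 CPM in females. In females 9 macrophage markers summed to 847 to 1086 CPM in the vehicle group and 1039 to 1882 CPM at 1500 mkd. In the same females 4 of 9 macrophage, 2 of 8 stellate and fibroblast, 2 of 6 endothelial and 1 of 6 T and NK cell markers tested were called up, where 13.1% of all genes were called. The 7 T and NK cell markers summed to 6.26 to 14.3 CPM in vehicle females and 12.3 to 19.8 CPM at 1500 mkd. In males on day 29, 0 genes of these 4 lists were called by edgeR, with 1 macrophage and 2 stellate markers at an unadjusted p under 0.05. Differences there were positive for 9 of 9 macrophage, 7 of 8 stellate, 6 of 6 endothelial and 3 of 4 T and NK cell markers. They were positive for 6585 of all 11279 genes tested. The part of these cell-type levels in the marker values was not tested. Of the 12 proliferation genes, 9 were called up in males and 12 in females on day 29, where 4.91 and 13.1% of all genes were called.

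Of the 20 tested enzymes linked to altered hepatocytes or to the oxidative stress factor NRF2, 8 were up and 1 down in Experiment A, where 21.4% of all genes were called. Among those with the lowest p were Hmox1 (heme oxygenase, log2 1.43, SE 0.24), the organic anion exporter Abcc3 (1.89, SE 0.38) and the glutathione S-transferase Gsta2, which fell by 1.42 (SE 0.30) on the log2 scale. In females on day 29 (13.1% of all genes called), 4 were up and 2 down, with Abcc3 (log2 1.55, SE 0.37) and the aldehyde reductase Akr7a3 (0.85, SE 0.25) up and Nqo1 (-1.38, SE 0.35) and Akr1b7 (-0.77, SE 0.21) down. Abcc3 was the 1 enzyme called in males on day 29 (log2 1.47, SE 0.37, with 4.91% of all genes called) and Akr7a3 the 1 in females on day 8 (2.18, SE 0.53, with 0.705%). In males of Experiment B on day 8, 0 of 20 were called by edgeR, with 6 at an unadjusted p under 0.05, where 0.177% of all genes were called.

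The genes most alike to each marker were taken by Pearson's r of log2 CPM over all rats, after each data set was centered on its mean. These r are descriptions over rats that share dose groups and libraries. For Gstp1 they were Serpinb6 (r 0.69), Igfbp7 (0.67) and Fxyd6 (0.66), and for Ggt1 they were Mfsd10 (0.64), Eml2 (0.64) and Slc52a3 (0.63). Akr1b8 was most alike to H19 (r 0.53), and Prom1 to Snapc3 (r 0.53) and Cd36 (r 0.52). Krt19 was most alike to another keratin, Krt20 (r 0.62), and Gpc3 to Dpep1 (r 0.61). Between the markers themselves r was low, and the highest was 0.41 for Gpc3 and Krt19. Gstp1 and Ggt1 had r 0.36, and Prom1 and Akr1b8 had -0.24.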

How the data were processed

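Total RNA of left-lobe liver was sequenced as single-end stranded mRNA libraries by the authors. Reads were trimmed (Trimmomatic), mapped to UCSC Rn6 (Bowtie2) and assigned to genes (HTSeq) (versions not given in the sources used here). The authors deposited raw counts per gene, with no normalization and with 1 table per experiment, sex and duration. HTSeq's summary lines, reads on no gene among them, held between 35.5 and 67.1% of a library in Experiment B and were left out. The remaining depth was between 15449716 and 39986531 gene reads per library.

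Samples were grouped by their GEO labels. The label of exposure series of the 28-day vehicle males names the other experiment, and title, strain and age place them with Experiment B. Counts were analyzed with edgeR 4.0.16 in R 4.3.3 (TMM scaling, filter on low counts by group, quasi-likelihood F-test, all groups of a table in 1 fit). Dose trends used a linear slope per 1000 mkd, and interactions and vehicle sex differences used a joint fit of 2 tables. CPM values use the TMM-scaled library sizes. Self-tests were run on simulated counts. The SD and SE reflect 5 rats per group, and limited counts add to the spread of Gpc3, Ggt1 and Akr1b8.

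The 10 genes and all gene lists were chosen with earlier results of these data known. Besides the 10, named genes were at most 4 of each list with the lowest p at the highest dose, and the 3 most alike to each gene by Pearson's r of log2 CPM (prior count 2), of which those with the highest r are given. Alternatives tried were DESeq2 1.42.0 or its size factors alone, a minimum of 10 counts throughout or no minimum, a replicate block, a fit on the vehicle and the tested dose, leaving out rats and, for trends, leaving out the highest dose or ranking the doses. Promoters are from RefSeq (GRCr8). One gene of the enzyme list is counted in its totals but not reported here by name.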

Additional observations from a re-analysis of the deposited data

Results flagged for a closer look

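Of 261 groups of 5 rats examined (9 genes in 29 groups), 22 held a rat whose gap to its nearest neighbor, divided by the range of the group, exceeded Dixon's critical value of 0.71. Chance alone gives about 1 in 20 groups where values are normally distributed. Whether the CPM values are was not tested, and the 9 genes share the same rats. In 21 of the 22 the rat was the highest of its group and in 1 it was the lowest.

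Prom1 had 4 such rats. They were vehicle female 1 on day 8 (25.56 CPM, the others 6.205 to 7.48), female 1 at 1500 mkd on day 8 (10.94 CPM, the others 2.283 to 3.536), female 4 at 300 mkd on day 29 (43.13 CPM, the others 5.591 to 11.03) and vehicle male 5 on day 8 (1.585 CPM, the others 0.6538 to 0.9016). The Afp rats were female 4 at 300 mkd on day 8 (19.47 CPM), male 4 at 300 mkd on day 29 (29.63 CPM) and male 3 at 500 mkd on day 8 (23.84 CPM). Akr1b8 stood out in male 4 at 300 mkd of Experiment A (0.439 CPM), and on day 29 in female 2 at 300 mkd (0.4326 CPM) and female 3 at 1000 mkd (2.173 CPM, the others 0.539 to 0.6104).

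Male 4 of the 300 mkd group on day 29, high in Afp, was also high in Ggt1 (0.4738 CPM, the others 0.2544 to 0.3071). The single low rat was male 4 at 500 mkd on day 8 of Experiment B, with 0.2379 CPM of Ggt1 against 0.5705 to 0.6558 in the others. Epcam was 21.53 CPM in male 4 at 500 mkd on day 29. Gpc3 was 0.7501 CPM in female 4 at 750 mkd and 0.7318 CPM in female 2 at 1500 mkd on day 29. Gstp1 was 7.232 CPM in female 3 at 300 mkd and 10.19 CPM in female 1 at 1000 mkd on day 8, and 9.86 CPM in male 2 at 1000 mkd on day 29. Krt19 was 6.07 CPM in vehicle male 5 of Experiment A, 4.667 CPM in female 1 at 300 mkd on day 8 and 2.639 CPM in vehicle male 3 on day 29. Sox9 was 1.669 CPM in vehicle female 5 on day 8.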

How the results depend on the processing

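Of 701 alternatives for single genes, 613 kept direction and side of the threshold, 39 lost a call, 12 gained one and 37 changed sign. Of 325 alternatives for counts of genes, 260 stayed within 1.5 times. DESeq2 could not be used for the sex responses at 28 days, where it gave no marker an adjusted p. Depth limits Gpc3, Ggt1 and Akr1b8 most, and with 5 rats per group single rats decided many calls.

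The counts below are of the tested markers, and shares over all genes were not counted in these settings. With only the vehicle and the tested dose in the fit, 0 markers were called in females on day 8 and 0 on day 29. This held at the highest dose and at any dose, and 1 marker was called at 1500 mkd in males on day 29. Where at least 10 counts were required in every rat, 0 were called in females on day 8, with 0 trends, and 4 trends were called in males on day 29. Without the highest dose, 1 trend was left in females on day 29 and 0 on day 8. The cause of these shifts was not tested, apart from the smaller number of genes and rats that enter by construction.

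The replicate numbers were not taken as pairing the rats in the main tests. Of 25 pairs of same-numbered vehicle and highest-dose rats, 15 had deviations correlated over 0.1 (within -0.295 to 0.419), which does not exclude pairing. In Experiment A the numbers follow the order of the rats, so its pairs do not share a label number. As 12 of 25 vehicle rats were best matched by their own number among 5 treated rats, the data hint at some sharing by number. With the replicate number as a block, 0 markers were called in females on day 8 (Akr1b8 was lost), at the highest and at any dose. In females on day 29 the block gave 3 calls (Epcam was added) and 7 trends (Krt19 was added), and in males on day 29 it gave 3 calls and 7 trends as before.

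Leaving out 1 rat of the contrast, 0 to 1 markers were called at the highest dose in Experiment A, 1 to 3 in males on day 29, 0 to 2 in females on day 8 and 0 to 4 in females on day 29. Leaving out instead the rats of 1 number from every group of a table, calls at any dose numbered 0 to 2 in males on day 29, 0 to 1 in females on day 8 and 0 to 5 in females on day 29. Trends then numbered 0 to 1 in Experiment A, 5 to 6 in males on day 29, 0 to 1 in females on day 8 and 2 to 7 in females on day 29. Without 1 rat of the contrast, sex responses at 28 days numbered 0 to 1 and vehicle sex differences at 28 days 2 to 5.

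Signs changed in differences near 0 that were not called in any setting. In Experiment A at 1000 mkd the log2 difference of Gstp1 was 0.027 with at least 10 counts and 0.00280 with the replicate block, and -0.093 to 0.12 without single rats. Krt19 there was -0.00722 with DESeq2's size factors, -0.010 with DESeq2, and -0.17 to 0.36 without single rats. Afp there ranged from -0.071 to 0.19 and Epcam from -0.24 to 0.081. In males of Experiment B on day 8, Afp was 0.00458 with at least 10 counts and -0.10 to 0.081 without single rats, Akr1b8 was 0.10 with the replicate block and -0.44 to 0.27 without single rats, and Gstp1 ranged from -0.051 to 0.28. In females on day 8, Afp ranged from -0.26 to 0.12, Gpc3 from -0.51 to 0.043 and Sox9 from -0.22 to 0.063.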
